A study of Rattus norvegicus with 20 samples.

Results

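The phagocyte oxidase genes Cybb, Cyba, Ncf1, Ncf4 and Rac2, the phagosomal metal transporter Slc11a1, the lysozyme gene Lyz2 and the chloride intracellular channel gene Clic2 were followed in rat whole blood. They are 8 genes, taken by their symbols from the rows of the deposited table, with the brightest row to be used where a gene had several. A named row was found for 6 of the 8 (Cyba, Ncf1, Rac2, Slc11a1, Lyz2 and Clic2), with 1 row each. Cybb and Ncf4 carry no named row in the annotation used here and were not analysed here. All 6 passed the filter on level that left 8499 of 14557 named genes for testing. The blood came from 20 rats in 4 groups of 5, each hybridised to its own Affymetrix Rat Gene 2.1 ST array from 100 ng of total RNA. The groups were rats given rosiglitazone, an insulin-sensitizing drug that activates PPAR gamma, rats given resveratrol, a plant polyphenol, untreated obese rats (here ZDF, Zucker diabetic fatty) and lean control rats. The labels give male ZDF rats and the strain Zucker for all 4 groups, and the group names rosiglitazone and resveratrol stand without a dose, a duration or an age. The lean rats ate a standard Purina chow, whereas a stock diet was given to the obese rats over 6 weeks, so diet and obesity cannot be told apart between ZDF and lean rats. The labels do not say whether the diet of the treated rats differed from that of the untreated obese ones, nor do they give their genotype, and they were taken here as obese rats on the stock diet.

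Neutrophils and monocytes kill ingested microbes inside the phagosome, where the NADPH oxidase moves electrons onto oxygen to make superoxide. Cybb and Cyba form its membrane core, Ncf1 and Ncf4 are recruited when the cell is activated, and the GTPase Rac2 switches the complex on. Slc11a1 (Nramp1) pumps iron and manganese out of the phagosome and so away from the microbe, and lysozyme cuts the peptidoglycan of bacterial walls. Clic2 belongs to a family of small chloride channel proteins of the glutathione transferase fold and is not a subunit of the oxidase.

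The promoters of the oxidase genes and of lysozyme are shown because Cyba, Ncf1 and Lyz2 are the measured genes for which a start site could be matched, and because myeloid promoters often hold the GAGGAA core bound by the factor Spi1. RefSeq promoter sequences (build GRCr8) were matched for 4 of the 8 genes, Cybb, Cyba, Ncf1 and Lyz2. The 250 bases before the start used by the promoter table are printed for each measured one, 5' to 3' on the strand of the gene, at chr19:67404215-67404464 for Cyba (minus strand), chr12:28121635-28121884 for Ncf1 (plus strand) and chr7:54798012-54798261 for Lyz2 (minus strand). The RefSeq gene table begins Ncf1 and Lyz2 further upstream, so that 69 bases of the Ncf1 window and 49 of the Lyz2 window lie inside the annotated gene, and 0 of the Cyba window. Capitals mark GAGGAA.
Cyba: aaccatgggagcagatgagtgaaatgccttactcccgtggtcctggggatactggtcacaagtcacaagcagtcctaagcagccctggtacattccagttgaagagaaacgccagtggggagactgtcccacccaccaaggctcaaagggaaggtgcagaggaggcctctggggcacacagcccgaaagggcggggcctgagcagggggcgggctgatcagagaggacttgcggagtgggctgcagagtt
Ncf1: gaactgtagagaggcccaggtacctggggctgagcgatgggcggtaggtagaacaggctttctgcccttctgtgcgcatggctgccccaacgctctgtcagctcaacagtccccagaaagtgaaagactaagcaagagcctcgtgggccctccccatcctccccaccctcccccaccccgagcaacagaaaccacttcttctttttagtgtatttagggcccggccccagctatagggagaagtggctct
Lyz2: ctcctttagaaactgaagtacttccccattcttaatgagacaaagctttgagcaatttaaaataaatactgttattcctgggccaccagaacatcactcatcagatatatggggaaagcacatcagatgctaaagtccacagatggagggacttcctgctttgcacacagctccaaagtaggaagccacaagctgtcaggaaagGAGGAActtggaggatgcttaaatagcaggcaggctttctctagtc
Both strands were searched for GAGGAA, for the CCAAT box and for TATAAA, none of which contains another. The Lyz2 window holds GAGGAA once, 46 bases before the start of the promoter table and so inside the gene as the gene table bounds it, and the Cyba and Ncf1 windows hold none of the 3 motifs. The unmeasured Cybb holds GAGGAA on the opposite strand, 14 bases before its start, and CCAAT at 203 and 79 bases before it. Among the same windows of 33469 promoters, 23.3% hold GAGGAA, 34% hold CCAAT and 12.9% hold TATAAA. A match is a description of the letters, and none was tested as a site.

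The values are log2 intensities as deposited, so a difference of 1 is a doubling. For arrays the precision depends on how many there are, and the median SD of a kept gene was 0.31 in rosiglitazone, 0.3 in resveratrol, 0.26 in ZDF and 0.24 in lean rats. The labels number the rats as biological replicates. The lists of neutrophil, monocyte, B cell, T cell, platelet and red cell genes all had kept members. So did the skeletal muscle list, with 5 of its 6 named genes, so kept members do not identify the tissue. Skeletal muscle genes averaged 6.58 in lean replicate 1 and at most 3.58 in the other 19 rats. Rosiglitazone replicate 5 and resveratrol replicate 1 correlated least with the other arrays, with a median r of 0.928 and 0.922 over the kept genes, against 0.947 to 0.963 for the other arrays. Results are therefore also given without these 3 arrays (an alternative chosen after the data were seen).

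Slc11a1 and Clic2 were higher in untreated ZDF than in lean blood, by 1.9-fold and 2.18-fold, and the measured oxidase subunits Cyba, Ncf1 and Rac2 did not pass the test in any of the 6 comparisons. Clic2 stood furthest from the lean level in rosiglitazone blood, at 4.93-fold, and at 2.98-fold in resveratrol blood. No gene of the 6 passed the test between a treated group and untreated ZDF, or between the 2 treated groups. Lyz2 was higher in every ZDF rat than in every lean rat but did not pass. In whole blood, fewer cells of a type and less RNA per cell cannot be told apart.

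Counted over the 6 genes, ZDF against lean rats gave 2 called higher, where 0.8% of all genes were called higher and 2.15% lower, and 3 without overlap above the lean rats, where 1.49% of all genes had none. Their median difference was 0.49, beside -0.08 over all genes. For rosiglitazone against lean rats 2 of 6 were called higher (4.17% of all genes higher, 14.5% lower) and 1 had no overlap (2.42%), with a median of 0.52 beside -0.09. For resveratrol against lean rats 1 of 6 was called higher (2.73% of all genes higher, 10.4% lower) and 1 had no overlap (2%), with a median of 0.13 beside -0.09. These 3 comparisons share the lean arrays. The genes were chosen with earlier results of these data known, so their counts and medians beside all genes are a description.

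Against untreated ZDF the limma test called 0 of the 6 genes for rosiglitazone (0.165% of all genes in either direction), although 1 of the 6, and 1032 of the 8499, reached an unadjusted p under 0.05 and 1, Clic2, had no overlap (1.09% of all genes). For resveratrol against ZDF it called 0 of 6, and 0% of all genes, with 1 of the 6 and 873 of the 8499 at an unadjusted p under 0.05. For rosiglitazone against resveratrol it called 0 of 6 (0.0471% of all genes), with 3 of the 6 and 765 of the 8499 at an unadjusted p under 0.05. The medians of the 6 genes were -0.11, -0.25 and 0.36 in these comparisons, beside -0.03, -0.02 and -0.01 over all genes.

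**Figure D1:**
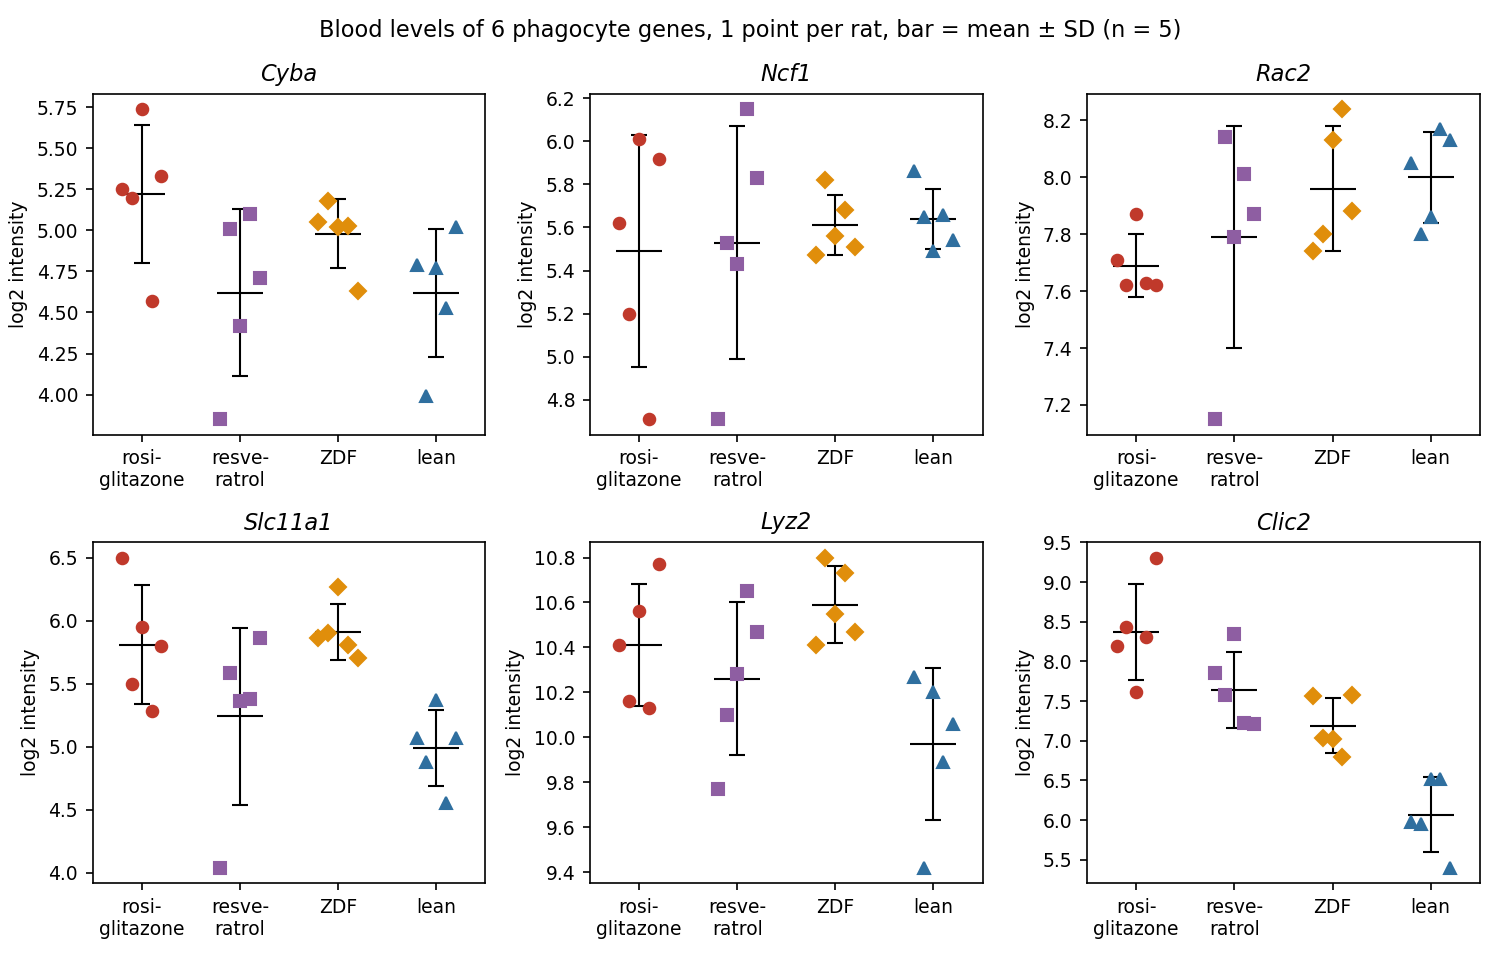
Log2 intensity (y axis) of each measured gene in blood, 1 point per rat in 4 groups of 5 (x axis: rosiglitazone, resveratrol, ZDF, lean), with the mean and SD as bars and a separate scale per gene. For Clic2 the 15 other rats lie between 6.79 and 9.31, all above the highest lean value of 6.52, whereas the Ncf1 groups overlap throughout.

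Cyba encodes the small membrane subunit that stabilises the oxidase core. Its log2 level was 5.25, 5.2, 5.74, 4.57 and 5.33 in the rosiglitazone rats and 3.85, 5.01, 4.42, 5.1 and 4.71 in the resveratrol rats. It was 5.05, 5.18, 5.02, 5.03 and 4.63 in the ZDF rats and 4.79, 3.99, 4.77, 4.53 and 5.02 in the lean rats. Resveratrol replicate 1 and lean replicate 2 were the lowest of the 20, and all groups overlapped. The means were 5.22 ± 0.42 in rosiglitazone, 4.62 ± 0.51 in resveratrol, 4.98 ± 0.21 in ZDF and 4.62 ± 0.39 in lean rats (SD, n = 5 each). The order of the means was rosiglitazone, ZDF, then resveratrol and lean at the same level, and no neighbours in it passed the test. The difference between ZDF and lean rats was 0.36 on the log2 scale (95% interval -0.02 to 0.75, adjusted p = 0.236), and that between rosiglitazone and lean rats was 0.6 (0.13 to 1.07, adjusted p = 0.0671). The second passed under 6 of 21 alternatives, with adjusted p values from 0.0205 to 0.195 over all of them. It passed without lean replicate 5 (0.0457) and without rosiglitazone replicate 4 (0.0286).

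Ncf1 encodes the cytosolic organiser that carries the soluble subunits to the membrane. Its level was 5.62, 5.2, 6.01, 4.71 and 5.92 in the rosiglitazone rats and 4.71, 5.53, 5.43, 6.15 and 5.83 in the resveratrol rats. It was 5.47, 5.82, 5.56, 5.68 and 5.51 in the ZDF rats and 5.86, 5.65, 5.49, 5.66 and 5.54 in the lean rats. The treated groups spread over 1.3 and 1.44 log2 units, whereas the ZDF and the lean rats each spread over 0.36. The means lay between 5.49 ± 0.54 in rosiglitazone and 5.64 ± 0.14 in lean rats (SD, n = 5), with 5.53 ± 0.54 in resveratrol and 5.61 ± 0.14 in ZDF rats between them. The difference between ZDF and lean rats was -0.03 (95% interval -0.31 to 0.24, adjusted p = 0.904). The 5 other differences lay between -0.15 and -0.04, with adjusted p values of 0.674 or more, so no order of the groups was resolved, and the signs changed under some alternatives.

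Rac2 is the GTPase of blood cells that activates the oxidase. Its level was 7.71, 7.62, 7.87, 7.63 and 7.62 in the rosiglitazone rats and 7.15, 8.14, 7.79, 8.01 and 7.87 in the resveratrol rats. It was 7.74, 7.8, 8.13, 8.24 and 7.88 in the ZDF rats and 8.05, 7.8, 7.86, 8.17 and 8.13 in the lean rats. The rosiglitazone rats were close together, resveratrol replicate 1 was the lowest of the 20, and all groups overlapped. The mean was 7.69 ± 0.11 in rosiglitazone, 7.79 ± 0.39 in resveratrol, 7.96 ± 0.22 in ZDF and 8 ± 0.16 in lean rats (SD, n = 5 each). Rosiglitazone and lean rats were furthest apart, with a difference of -0.31 (95% interval -0.65 to 0.03, adjusted p = 0.183). For ZDF against lean rats the difference was -0.05 (-0.35 to 0.26, adjusted p = 0.868). No neighbours in the order of the means (lean, ZDF, resveratrol, rosiglitazone) passed the test.

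Slc11a1, the phagosomal metal transporter, separated ZDF from lean blood. Its level was 6.5, 5.5, 5.95, 5.28 and 5.8 in the rosiglitazone rats and 4.04, 5.58, 5.36, 5.38 and 5.86 in the resveratrol rats. It was 5.86, 5.9, 6.27, 5.81 and 5.7 in the ZDF rats and 5.07, 4.88, 5.37, 4.55 and 5.07 in the lean rats. The 5 ZDF values lay above all lean values, whereas both treated groups overlapped with ZDF and with lean rats. The means were 5.81 ± 0.47 in rosiglitazone, 5.24 ± 0.7 in resveratrol, 5.91 ± 0.22 in ZDF and 4.99 ± 0.3 in lean rats (SD, n = 5 each). No neighbours in the order of the means (ZDF, rosiglitazone, resveratrol, lean) passed the test. Between ZDF and lean rats the difference was 0.92 on the log2 scale (SE 0.16, 95% interval 0.58 to 1.27, 1.9-fold, adjusted p = 0.013), and 16 of the 8499 genes had a larger rise. Without the 3 arrays that stand apart it was 0.94 (adjusted p = 0.0299). With the spread estimated from all 20 arrays it did not pass (adjusted p = 0.0899), the 1 of 21 alternatives in which it failed.

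Rosiglitazone rats were above lean rats in Slc11a1 as well, by 0.82 (SE 0.26, 95% interval 0.29 to 1.36, 1.77-fold, adjusted p = 0.0292). That call was lost without lean replicate 1 (0.0519), lean replicate 2 (0.0602), lean replicate 4 (0.0825), rosiglitazone replicate 1 (0.0814) or rosiglitazone replicate 5 (0.0624). The resveratrol rats had a mean 0.67 below that of the ZDF rats (difference -0.67, 95% interval -1.2 to -0.14, adjusted p = 0.401). Without the 3 arrays that stand apart, of which resveratrol replicate 1 is the lowest Slc11a1 value, this difference was -0.37 (adjusted p = 0.738). Resveratrol against lean rats gave 0.26 (-0.28 to 0.79, adjusted p = 0.517), and 0.58 (adjusted p = 0.133) without those arrays.

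Lyz2, the lysozyme of myeloid cells, lay between 9.42 and 10.8 in the 20 rats. Its level was 10.41, 10.16, 10.56, 10.13 and 10.77 in the rosiglitazone rats and 9.77, 10.1, 10.28, 10.65 and 10.47 in the resveratrol rats. It was 10.41, 10.8, 10.55, 10.73 and 10.47 in the ZDF rats and 10.27, 9.42, 10.2, 9.89 and 10.06 in the lean rats. The lowest ZDF value lay above the highest lean value, and the treated groups overlapped with both. The means were 10.41 ± 0.27 in rosiglitazone, 10.26 ± 0.34 in resveratrol, 10.59 ± 0.17 in ZDF and 9.97 ± 0.34 in lean rats (SD, n = 5 each). The difference between ZDF and lean rats was 0.62 (SE 0.17, 95% interval 0.27 to 0.97, 1.54-fold, adjusted p = 0.0541), just short of the threshold. It passed under 4 of 21 alternatives, with adjusted p values of 0.0268 with the filter at the 75th percentile, 0.016 when the prior variance was trended and robust, 0.0358 when arrays were weighted and 0.0268 with the arrays centred on the kept genes. Rosiglitazone against lean rats gave 0.44 (0.06 to 0.81, adjusted p = 0.0934), and 0.59 (adjusted p = 0.0258) with the arrays centred on the kept genes. No neighbours in the order of the means (ZDF, rosiglitazone, resveratrol, lean) passed the test. The identifier of the Lyz2 row belongs to the gene that RefSeq names Lyz2 with the synonym Lyz1. The RefSeq table lists a further rat lysozyme gene, Lyc2, and probes may be shared within this pair, so the value of Lyz2 is uncertain in that respect.

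Clic2 had the widest range of group means of the 6 genes. Its level was 8.19, 8.44, 7.62, 8.31 and 9.31 in the rosiglitazone rats and 7.86, 7.58, 8.34, 7.22 and 7.21 in the resveratrol rats. It was 7.56, 7.03, 7.02, 6.79 and 7.58 in the ZDF rats and 5.97, 5.95, 6.52, 6.52 and 5.4 in the lean rats. Every rosiglitazone value lay above every ZDF value, and every ZDF and resveratrol value above every lean value, while resveratrol rats overlapped with rosiglitazone and with ZDF rats. The means were 8.37 ± 0.61 in rosiglitazone, 7.64 ± 0.48 in resveratrol, 7.19 ± 0.35 in ZDF and 6.07 ± 0.47 in lean rats (SD, n = 5 each).

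Between ZDF and lean rats Clic2 differed by 1.12 (SE 0.22, 95% interval 0.66 to 1.59, 2.18-fold, adjusted p = 0.0189), and 5 genes had a larger rise. This call was lost without lean replicate 2 (0.0544), without ZDF replicate 1 (0.0547) and with the spread of all 20 arrays (0.0541), and it held without lean replicate 1, which stands apart (difference 1.1, adjusted p = 0.0459). Rosiglitazone rats were 2.3 above lean rats (SE 0.27, 95% interval 1.75 to 2.86, 4.93-fold, adjusted p = 6.09e-05), the largest rise among the 8499 genes on the deposited scale. Resveratrol rats were 1.57 above lean rats (SE 0.27, 1.02 to 2.13, 2.98-fold, adjusted p = 0.00294), with 1 gene rising more. Both calls passed in all 21 alternatives, and without the 3 arrays that stand apart the differences were 2.04 (adjusted p = 0.000463) and 1.49 (adjusted p = 0.0102).

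Against untreated ZDF, Clic2 in rosiglitazone rats was 1.18 higher (SE 0.27, 95% interval 0.62 to 1.73, 2.26-fold), without overlap, but the adjusted p was 0.0731. It passed without rosiglitazone replicate 3 (0.0442), and without the 3 arrays that stand apart the difference was 0.95 (adjusted p = 0.155). The difference between resveratrol and ZDF rats was 0.45 (-0.11 to 1, adjusted p = 0.566), and that between rosiglitazone and resveratrol rats was 0.73 (0.17 to 1.28, adjusted p = 0.406). In the order of the means (rosiglitazone, resveratrol, ZDF, lean) only ZDF and lean rats passed the test as neighbours.

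**Figure D2:**
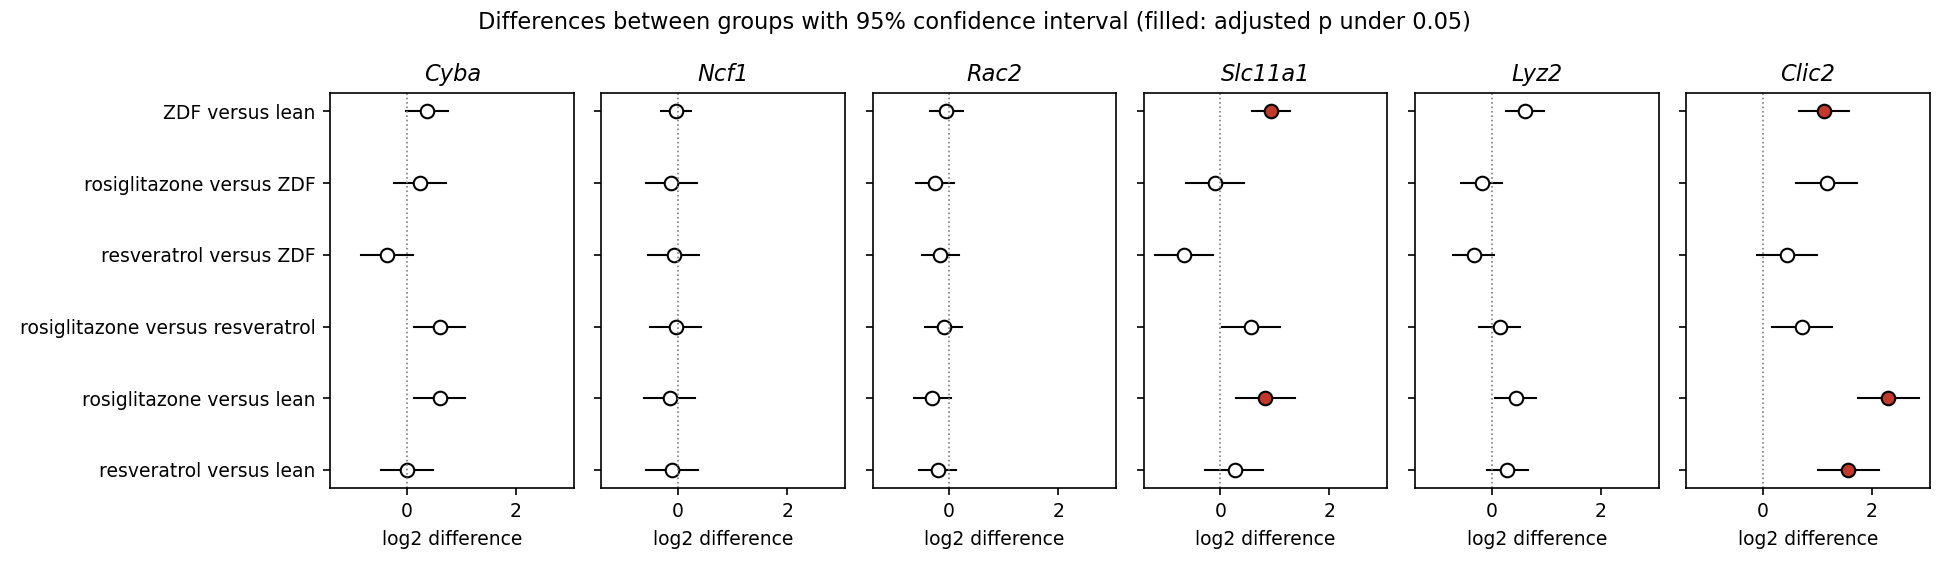
Log2 difference (x axis) of each measured gene in the 6 comparisons (rows), the first-named group minus the second, with 95% confidence intervals, filled where the adjusted p is under 0.05. The 5 filled points are Slc11a1 for ZDF and rosiglitazone against lean (0.92 and 0.82) and Clic2 for ZDF, rosiglitazone and resveratrol against lean (1.12, 2.3 and 1.57).

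Marker genes of blood cell types differed between these groups. The mean of 11 monocyte genes ran from 4.61 to 5.83 in rosiglitazone, 4 to 5.03 in resveratrol, 4.99 to 5.38 in ZDF and 4.56 to 4.91 in lean rats. Of the 10 kept, 4 were called higher in ZDF than in lean rats, where 0.8% of all genes were. In rosiglitazone against lean rats 4 were (4.17% of all genes), and in resveratrol against lean rats 0 (2.73%). Every ZDF rat stood above every lean rat in this list mean, as in Slc11a1.

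Among the 6 genes Slc11a1 had the highest r with this list mean, at 0.91 over the 20 rats (rho = 0.89), 0.81 without the 2 rats furthest from the list's median and 0.86 within groups. Resveratrol replicate 1 was lowest and rosiglitazone replicate 1 highest in both. For Cyba the r was 0.78 (rho = 0.81, within groups 0.68) and for Lyz2 0.69 (rho = 0.76, within groups 0.58). Ncf1 had 0.48 and 0.69 within groups, Rac2 had 0.28 and 0.59, and Clic2 had 0.27 and -0.17. The part of the monocyte genes in the differences of Slc11a1, Cyba and Lyz2 was not tested.

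**Figure D3:**
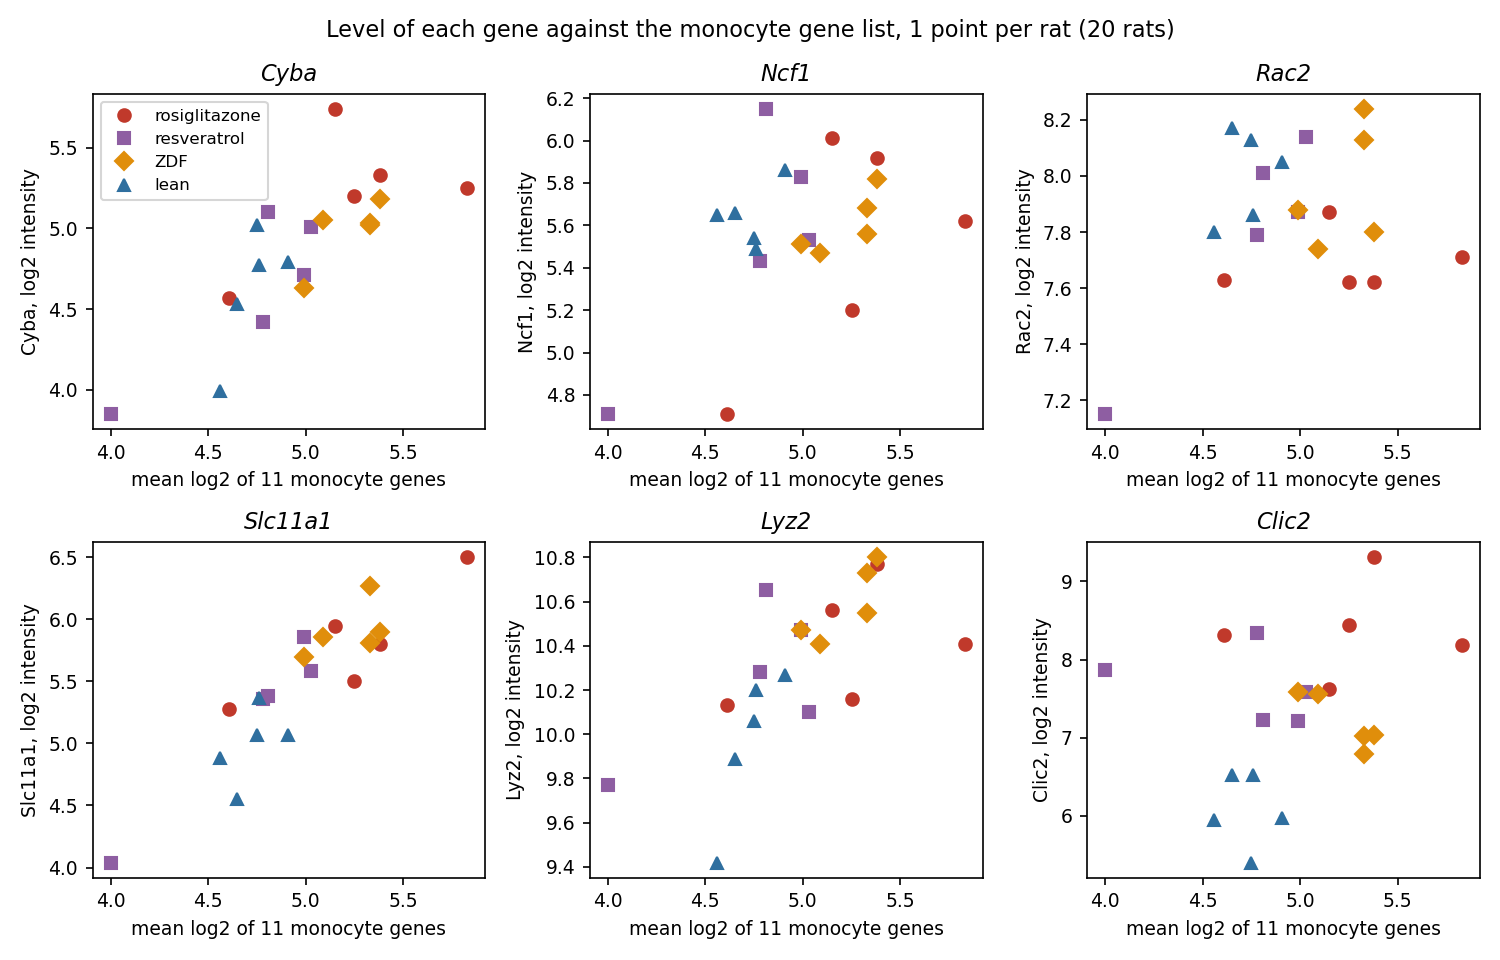
Log2 intensity of each measured gene (y axis) against the mean log2 level of 11 monocyte genes (x axis), 1 point per rat, coloured by group. Slc11a1 lies close to a line over the 20 rats (r = 0.91), whereas Clic2 does not (r = 0.27).

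The mean of 13 neutrophil genes ran from 4.51 to 6.12 in rosiglitazone and 4.65 to 5.48 in resveratrol rats. It ran from 4.61 to 5 in ZDF and 4.13 to 4.84 in lean rats. Against lean rats 6 of the 10 kept genes were called higher in rosiglitazone rats (4.17% of all genes). In resveratrol rats 3 were (2.73%), and in ZDF rats 2 (0.8%). The Lyz2 level had r = 0.69 with the neutrophil mean (rho = 0.74, within groups 0.75), and Clic2 had 0.62 (rho = 0.5), which was 0.12 within groups. The neutrophil list shares S100a8, S100a9, Mmp8, Mmp9, Ngp, Camp, Lcn2 and Ltf with the list of granule proteins. It shares Csf3r and Fpr1 with the list of receptors and adaptors, and the monocyte list shares Csf1r, Cd14 and Fcgr3a with that list. Lists of lymphocytes and platelets went the other way. B cell genes averaged 3.83 to 4.24 in rosiglitazone, 4.01 to 4.73 in resveratrol and 4.24 to 4.61 in ZDF rats, against 4.86 to 5.42 in lean rats. In the same order 5, 4 and 2 of 5 B cell genes and 7, 4 and 2 of 9 T cell genes were called lower. Over all genes 14.5%, 10.4% and 2.15% were called lower in these comparisons. The Clic2 level had r = -0.88 with the B cell mean, and -0.46 within groups, and r = 0.57 with the red cell mean, and 0.42 within groups. Rac2 had a higher r with lymphocyte lists than with the monocyte list. Its r was 0.72 with the T cell mean (0.64 within groups) and 0.63 with the B cell mean (0.6 within groups). With the NK cell mean it was 0.61 (0.56 within groups), and with the neutrophil mean -0.24 (0.09 within groups). The part of these cell types in the levels of Rac2 and in the differences of Lyz2 and Clic2 was not tested.

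Several of these genes varied together from rat to rat. Over the 20 arrays Cyba went with Slc11a1 (Pearson r = 0.74, Spearman rho = 0.7) and with Lyz2 (r = 0.73, rho = 0.65), and Slc11a1 with Lyz2 (r = 0.74, rho = 0.76). After the group means were removed these r were 0.65, 0.75 and 0.56, and without the 2 rats furthest from the median of the first gene they were 0.55, 0.5 and 0.66. Clic2 had lower values: its r with Slc11a1 was 0.3 over all rats and -0.27 within groups. With Rac2 it ran the other way, at r = -0.58 (rho = -0.67), and -0.41 within groups. These values describe 20 arrays that also share their RNA preparation and cell makeup, and are given without a test.

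The genes with the most similar profiles over the 20 rats, by Pearson r, differed between the members. For Cyba they were Pilrb2l3 (0.87), Rgs2 (0.84) and Ifngr2, a chain of the interferon gamma receptor (0.83). For Ncf1 they were Dck (0.89), Ctsh, a lysosomal cathepsin (0.88), and Iqgap1 (0.87), and for Rac2 they were Ankrd44 (0.88), Snrnp200 (0.87) and Zfp110 (0.87). For Slc11a1 they were Aoah, which deacylates bacterial lipopolysaccharide (0.89), the myeloid lectin Clec4a1 (0.87) and Igsf6 (0.87). For Lyz2 they were Fn1 (0.91), Sgms2 (0.9) and Trem1, a receptor of neutrophils and monocytes (0.87). For Clic2 they were Gid8 (0.94), Cenpw (0.93) and Mtmr3 (0.9), with r within groups of 0.75, 0.78 and 0.73. Clec4a1 and Trem1 also stand in the marker lists.

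Partners and regulators of the oxidase were counted next. Of 34 listed partners, activators and homologues, 16 were kept, and none was called for ZDF against lean rats, where their median of -0.09 stood beside -0.08 over all genes. Hvcn1, the proton channel that balances the charge moved by the oxidase, averaged 4.71 ± 0.3 in rosiglitazone, 4.8 ± 0.6 in resveratrol, 5.29 ± 0.33 in ZDF and 5.73 ± 0.13 in lean rats (SD, n = 5 each), and fell by 1.02 (adjusted p = 0.00436) in rosiglitazone and by 0.93 (adjusted p = 0.0148) in resveratrol rats relative to lean rats. The ZDF difference of -0.44 did not pass (adjusted p = 0.121). The kept B cell genes had median differences from lean rats of -1.06 in rosiglitazone, -0.73 in resveratrol and -0.76 in ZDF rats. The part of cell makeup in the Hvcn1 differences was not tested. Cybc1, which helps assemble the membrane core, differed from lean rats by -0.28 in rosiglitazone, -0.09 in resveratrol and -0.16 in ZDF rats and passed in none. Rac1 and Slc11a2 carry no named row and were not analysed here.

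For rosiglitazone against lean rats 2 of the 16 were called higher and 3 lower, where 4.17% of all genes were called higher and 14.5% lower. Nos2, the inducible nitric oxide synthase, was 1.24 higher (adjusted p = 0.00607), at 3.83 ± 0.69 in rosiglitazone and 2.59 ± 0.44 in lean rats (SD, n = 5 each). Its lean mean lay below the filter level of 2.64, so Nos2 was kept only through the other groups. Pak1, a kinase that phosphorylates Ncf1, was 0.64 higher (adjusted p = 0.0268). Pik3cd, a phosphoinositide kinase of leukocytes, and the protein kinase gene Prkca fell by 0.59 and by 0.61 (adjusted p = 0.0378 and 0.042). The rosiglitazone calls of Nos2 and Hvcn1 passed in every alternative that tested them. Those of Pak1, Pik3cd and Prkca were lost in 4, 6 and 6 of the 10 fits that left out 1 array. The resveratrol call of Hvcn1 passed in 20 of 21 alternatives. The part of cell makeup in the differences of Pik3cd and Prkca was not tested.

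Of 27 listed metal handling genes, 12 were kept and none was called for ZDF against lean rats, with a median of -0.09. For rosiglitazone against lean rats 2 were called higher and 2 lower (4.17% and 14.5% of all genes), and for resveratrol 2 higher and 1 lower (2.73% and 10.4%). In rosiglitazone relative to lean rats the heme oxygenase gene Hmox1 rose by 0.7 (adjusted p = 0.0115) and the ferrireductase gene Steap3 by 0.66 (0.0278), while the zinc transporter gene Slc30a4 fell by 0.91 (0.00251) and the iron exporter gene Slc40a1 fell by 0.67 (0.00431). In resveratrol relative to lean rats Steap3 rose by 0.86 (0.0148) and the transferrin receptor gene Tfrc by 1.2 (0.0292), while Ireb2, an iron-sensing regulator of transcripts, fell by 0.72 (0.022). Leaving out 1 array lost the rosiglitazone call of Steap3 in 3 of 10 fits and the resveratrol calls of Tfrc and Ireb2 in 5 and 3. The lean mean of Steap3 was 2.59, below the filter level of 2.64, so Steap3 was kept only through the other groups. Steap3 and Tfrc serve iron uptake in young red cells, and the red cell list averaged 9.74 to 9.9 in rosiglitazone, 9.69 to 10.05 in resveratrol, 9.57 to 9.98 in ZDF and 9.5 to 9.86 in lean rats over its 3 named genes. Its part in the result was not tested.

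Of 22 listed genes of antimicrobial granule proteins, 10 were kept. Against lean rats 5 of them were called higher in rosiglitazone rats (4.17% of all genes), 2 in resveratrol rats (2.73%) and 2 in ZDF rats (0.8%), and 0 were called lower. The filter used the mean over all arrays, and Camp and Epx, at 2.5 and 2.47 in lean rats, passed it only through the treated groups, so the kept genes are no even sample of the list. Over the 18 named genes without a filter the median difference from lean rats was 0.46 in rosiglitazone, 0.42 in resveratrol and 0.25 in ZDF rats, beside 0.04, 0.03 and 0.01 over all genes, and 5, 2 and 0 passed. The neutrophil collagenase gene Mmp8 averaged 7.66 ± 0.91 in rosiglitazone, 7.35 ± 0.66 in resveratrol, 7.12 ± 0.3 in ZDF and 6.22 ± 0.51 in lean rats (SD, n = 5 each), and was called in all 3 groups against lean rats (differences 1.44, 1.13 and 0.9, adjusted p = 0.00704, 0.0336 and 0.043). S100a8, 1 chain of the metal-binding protein calprotectin, was called for rosiglitazone and ZDF rats (1.39 and 1.01, adjusted p = 0.014 and 0.0497). Its partner S100a9, Ngp and Pglyrp1 passed for rosiglitazone rats (1.06, 1.48 and 1.41), and Mmp9, a gelatinase, for resveratrol rats (1.18, adjusted p = 0.0346). The 2 calls for ZDF rats held in 8 of 21 alternatives each and were lost in 9 of the 10 fits that left out 1 array. For resveratrol rats Mmp8 and Mmp9 were lost in 7 of 10 such fits each, and for rosiglitazone rats S100a9 was lost in 4 and Ngp in 1.

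Receptors and adaptors of phagocytosis were counted too. All 21 named genes of the 28 listed were kept, and 0 were called for ZDF against lean rats, although 17 of the 21 differences lay above 0 and the median was 0.26 beside -0.08 over all genes. In rosiglitazone relative to lean rats 4 rose (4.17% of all genes rose and 14.5% fell), namely the granulocyte growth factor receptor gene Csf3r (0.96, adjusted p = 0.0147), the kinase gene Fgr (0.86, 0.00672), Csf2rb (0.81, 0.0459) and the lipopolysaccharide co-receptor gene Cd14 (0.71, 0.0318). The integrin gene Itgax fell by 0.71 (0.00846). In resveratrol rats, where 2.73% of all genes rose and 10.4% fell, Csf3r rose by 0.86 (0.033) and Coro1a, an actin regulator, fell by 0.61 (0.0356). Leaving out 1 array lost Cd14 in 6, Csf2rb in 7 and Csf3r in 1 of 10 fits for rosiglitazone rats, and Csf3r and Coro1a in 6 each for resveratrol rats. With the arrays centred on the kept genes the rosiglitazone count was 9 higher and 1 lower, with quantile normalization it was 6 and 1, and with median centring 2 and 2.

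The relatives of Clic2 were counted as well. Of the 4 kept Clic genes, only Clic4 passed, with a fall of 0.53 in rosiglitazone relative to lean rats (adjusted p = 0.0262), where 14.5% of all genes fell. The Clic4 difference between ZDF and lean rats was -0.52 and did not pass (adjusted p = 0.0651), and that between resveratrol and lean rats was -0.23 (adjusted p = 0.341). The genes Clic1, Clic3 and Clic5 differed from lean rats by -0.03 to 0.44 in the 3 other groups. The Clic4 call was lost in 5 of 10 fits without 1 array. A difference between these genes and Clic2 was not tested.

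**Figure D4:**
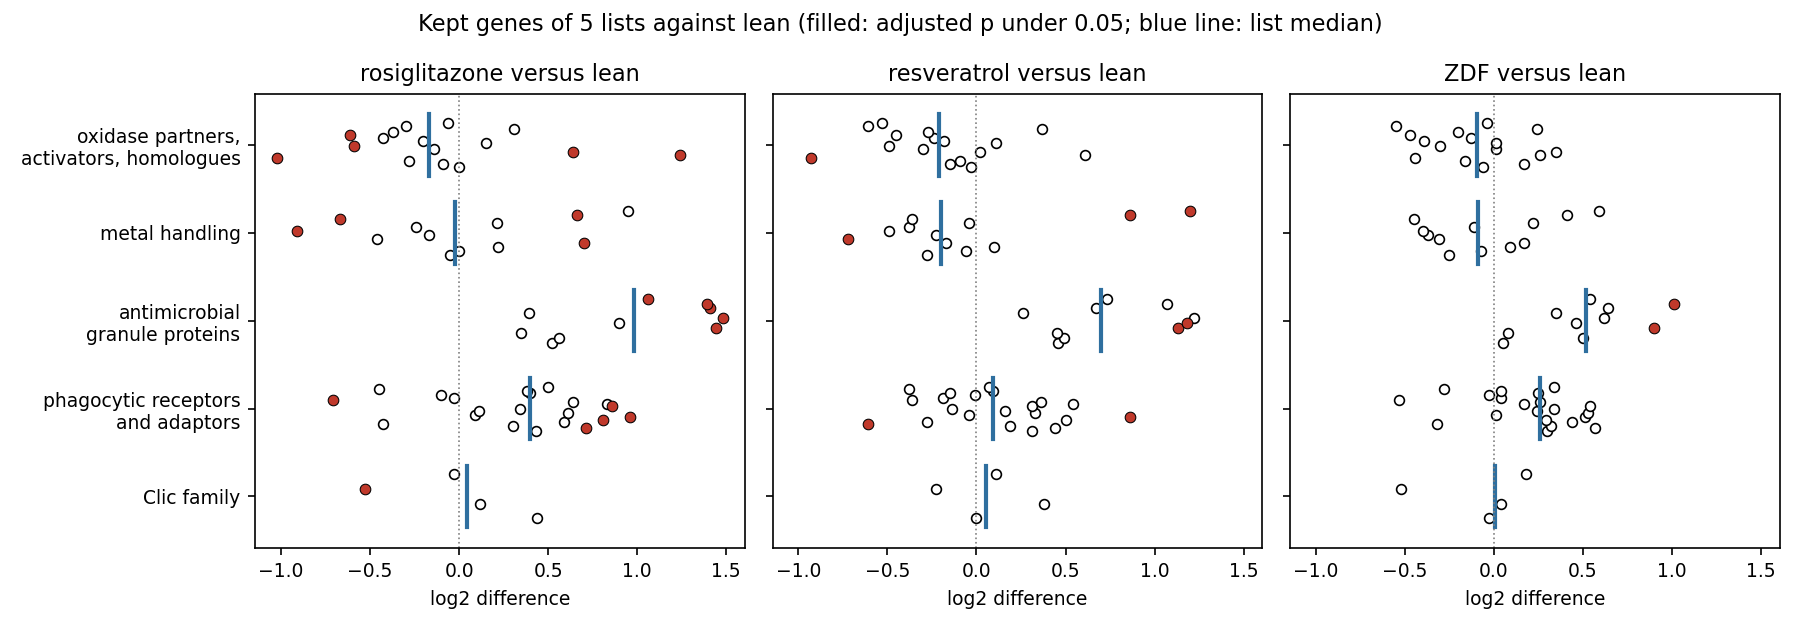
Log2 difference from lean rats (x axis) of the kept genes of 5 lists (rows) in rosiglitazone, resveratrol and ZDF rats (panels), filled where the adjusted p is under 0.05, with the list median as a blue line. The filled granule protein genes, 5, 2 and 2, lie above 0, and the medians of the oxidase partner genes are -0.17, -0.21 and -0.09, beside -0.09, -0.09 and -0.08 over all genes.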

How the data were processed

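Whole blood RNA of 20 rats was measured on 1 Affymetrix Rat Gene 2.1 ST array each. The authors made the deposited values with robust multi-array averaging (RMA), which gives log2 intensities, here from -0.288 to 12.2, for 36685 transcript clusters. The sources used here give no RMA version. Clusters were named from the platform annotation (14824 with 1 symbol, 829 with several, 21032 without), and 14670 were matched by Entrez identifier to the RefSeq table of assembly GRCr8. Clusters with a mean of at least 2.64, the median of all cluster means, were kept, and the brightest stood for a gene, which gave 8499 genes. Groups came from the labels. Tests used limma 3.58.1 under R 4.3.3 (lmFit, eBayes), with Benjamini-Hochberg adjustment over all kept genes and a threshold of 0.05. ZDF was compared with lean on their 10 arrays, and the other 5 comparisons used all 20 arrays with 4 group means. Intervals are 95% confidence intervals of the fit.

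The members and gene lists were chosen with earlier results of these data known. Named from each list were up to 6 genes past the test, the core partners of the oxidase whatever their result, and for each member the 3 genes with the highest Pearson r over the 20 arrays, leaving out locus numbers and predicted names. Alternatives were no filter, a filter at the 75th percentile, quantile normalization, median centring, averaging the clusters of a gene, the other set of arrays, weighted arrays, a prior that is trended and robust, a replicate block, and each array left out in turn. Leaving out 3 arrays and centring on the kept genes were chosen after seeing the data. The limma fit was tested on simulated data for ZDF against lean rats and for rosiglitazone against ZDF, and the other steps were not. No 2 arrays held identical values. Figures were drawn with matplotlib 3.10.9 in Python 3.11.15. Liver and muscle arrays were not analysed here, and the values of 1 further gene list are not reported here.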

Additional observations from a re-analysis of the deposited data

Results flagged for a closer look

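Of 24 groups of 5 rats tested for a sample far from the others (6 genes in 4 groups), 2 held one. The critical value for the gap over the range was 0.71, and chance flags about 1 in 20 groups. Cyba in ZDF replicate 5 was 4.63, with the nearest other ZDF value at 5.02 and a ratio of 0.712. Slc11a1 in resveratrol replicate 1 was 4.04, with the nearest other resveratrol value at 5.36 and a ratio of 0.725. The same array was the lowest of the 20 in Cyba, Rac2 and the monocyte list mean, and it is 1 of the 3 arrays that stand apart.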

How the results depend on the processing

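Over 21 alternatives and 36 differences of the 6 genes (756 values), 711 kept direction and side of the threshold, 12 passed newly, 9 no longer passed and 24 changed sign, and the cause was not tested. Of the 33 called differences of list genes, those of a list not reported here included, 11 passed in every alternative and 0 changed sign. The number of arrays limits what can be called, and signal over background was not analysed here.

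For ZDF against lean rats the count of all genes called, 251, became 132 without a filter, 490 with the filter at the 75th percentile, 135 with quantile normalization, 455 with median centring, 512 with the trended robust prior, 504 with array weights, 23 with all 20 arrays and 79 without the 3 arrays that stand apart. With all 20 arrays 0 of the 6 members passed. Leaving out 1 array gave 46 to 459 genes and 1 to 2 members. For rosiglitazone against ZDF the 14 genes became 22 with centring on the kept genes and 25 with the trended prior, and leaving out 1 array gave 3 to 16 genes and 0 to 1 members. For resveratrol against ZDF it gave 0 to 1 genes. For rosiglitazone against resveratrol the 4 genes became 7 with the filter at the 75th percentile, 7 with quantile normalization, 7 with centring on the kept genes, 13 with the trended prior and 10 with array weights, and 3 to 11 without 1 array. For rosiglitazone against lean rats the 1585 genes became 1012 with quantile normalization, 631 without the 3 arrays and 785 to 1648 without 1 array, with 1 to 3 members, and 4 members passed with centring on the kept genes. For resveratrol against lean rats the 1118 genes became 415 with quantile normalization, 245 without the 3 arrays and 317 to 1363 without 1 array.

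Centring on the kept genes raised the median of all genes by 0.125 for ZDF, 0.155 for rosiglitazone and 0.158 for resveratrol against lean rats. The genes called higher and lower for ZDF against lean rats were 68 and 183, and became 45 and 87 without a filter, 71 and 64 with quantile normalization, 52 and 403 with median centring and 175 and 70 with centring on the kept genes. For rosiglitazone against lean rats 354 and 1231 became 363 and 649, 198 and 1708, and 807 and 625 under quantile normalization, median centring and centring on the kept genes. For resveratrol against lean rats 232 and 886 became 176 and 239, 132 and 1213, and 624 and 342 in the same order.

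The changes of sign were in small differences, none of them called. For ZDF against lean rats Ncf1 became 0.11 with quantile normalization, 0.09 with centring on the kept genes, 0.02 without the 3 arrays and -0.08 to 0.02 without 1 array, and Rac2 became 0.01, 0.08 and, without 1 array, -0.12 to 0.01. For rosiglitazone against ZDF, leaving out 1 array gave -0.25 to 0.08 for Ncf1 and -0.28 to 0.03 for Slc11a1. For resveratrol against ZDF Ncf1 became 0.04 with array weights, 0.13 without the 3 arrays and -0.23 to 0.13 without 1 array. For rosiglitazone against resveratrol Lyz2 became -0.06 without the 3 arrays and Ncf1 -0.24 to 0.16 without 1 array. Against lean rats Ncf1 became 0.03 with quantile normalization, 0.01 with centring on the kept genes and -0.28 to 0.05 without 1 array for rosiglitazone, and 0.09, 0.05, 0.15 without the 3 arrays and -0.26 to 0.1 without 1 array for resveratrol.

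Whether replicate numbers pair the rats was not settled, because differently numbered rats were not compared. The correlations of the deviations of same-numbered rats were -0.1 to 0.09 for ZDF with lean rats and -0.02 to 0.27 for rosiglitazone with lean rats. They were -0.18 to 0.21 over the other comparisons, and at most 2 of 5 pairs in a comparison exceeded 0.1. With the replicate block 75 genes were called for ZDF against lean rats, 13 for rosiglitazone against ZDF, 0 for resveratrol against ZDF, 5 for rosiglitazone against resveratrol, 1570 for rosiglitazone against lean and 1032 for resveratrol against lean rats, and no call of a member changed.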
